A study of Mus musculus with 32 samples.

Results

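The glycolysis enzymes described here are 10 genes chosen by symbol: Hk1, Gpi1, Pfkl, Aldoa, Tpi1, Pgk1, Pgam1, Eno1, Pkm and Ldha. All 10 were found among the 27179 genes of the deposited count table. RNA was sequenced from 2 sorted bone marrow populations of 16 adult C57BL/6 mice, LSK cells (lineage-negative, Sca-1 and Kit positive cells, a fraction that holds the blood stem cells) and progenitor cells, whose gate the labels do not describe. In the knockouts both floxed copies of Hbo1 (Kat7), which encodes a histone acetyltransferase, were deleted, and in the controls 1 floxed copy was present and deleted, per the titles. The treatment protocol instead speaks of wild type controls that express Cre, so the heterozygous state of the controls rests on the titles and the design text. Deletion was induced by tamoxifen in mice with RosaCreERT2, called CreER here, or by polyIC in mice with Mx1Cre, whose promoter answers to interferon. Knockouts and controls of a line all carried that line's Cre, so that the lines differ in Cre, inducing agent and mice at once. Each of the 8 groups, made of 2 populations, 2 Cre lines and 2 genotypes, held 4 libraries from 4 mice. Each mouse gave 1 LSK and 1 progenitor library.

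Glycolysis turns glucose into pyruvate in the cytosol and yields ATP without oxygen. Hexokinase traps glucose as glucose-6-phosphate, phosphofructokinase commits it to the pathway, aldolase splits the sugar, and phosphoglycerate kinase and pyruvate kinase make ATP in the lower part. Lactate dehydrogenase reduces pyruvate to lactate and returns NAD+. Blood stem cells are known for relying on glycolysis while quiescent and for raising mitochondrial respiration as they differentiate, and HIF-1 is known to raise many genes of the pathway.

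Kat7 itself stood at 39.7 to 78.0 CPM (counts relative to the library's TMM-scaled total) in the 16 control libraries and at 0 to 1.65 CPM in the 16 knockout libraries, with no overlap. Total counts ran from 7275277 to 18409271 per library. The 10 enzymes together took 0.334% to 0.518% of the counts of a library. Their counts limit precision little for most of them: Ldha had 5860 to 17598 counts per library and Pkm 4473 to 18442, whereas Pgk1 had 58 to 170. The labelled sex was not matched by X- and Y-linked expression in libraries 2 and 3 of the LSK CreER knockouts, while it was in the other 30. Since the pair belongs to the same group, an exchange between them leaves the groups as they are. For the 10 enzymes, each call below that changed without both is given with that value. Calls of isozymes, neighbouring genes and markers were not examined without both. All 10 stem cell and LSK gate markers, such as Kit, Ly6a and Procr, were called higher in LSK than in progenitor controls, in the direction of the sort labels. Libraries also differed in how expression related to gene length. The slope of log2 CPM per doubling of exon length was -0.08, -0.12 and -0.14 in LSK Mx1Cre knockouts 1, 3 and 4, but 0.02 in knockout 2 and 0.03 to 0.06 in the LSK Mx1Cre controls. In progenitors it was lowest in Mx1Cre control 1 (-0.35) and Mx1Cre knockout 4 (-0.29). The median exon length was 1881 bp for the 10 enzymes and 2601 bp for all genes tested.

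Several of these genes have near-identical copies elsewhere in the genome, and how reads with several matches were counted is not given in the sources used here. In the GENCODE M21 transcripts, 67.4% of the 80-base stretches of Pgk1 also occur letter for letter in transcripts of other genes, as do 43.3% of those of Eno1 (mainly in Eno1b), 40.4% of Pgam1 (mainly in Pgam1-ps2), 12.3% of Pkm and 8.37% of Gpi1. For Ldha, Tpi1 and Aldoa the shares were 2.42%, 1.9% and 0.29%, and for Hk1 and Pfkl they were 0%. Gapdh, the enzyme between triosephosphate isomerase and phosphoglycerate kinase, shares 55.0% of its stretches with 109 other genes and had 83 to 239 counts per library. The levels of Pgk1, Eno1, Pgam1 and Gapdh are therefore uncertain, and the part of shared reads in their fold changes was not tested. Of the copies with an identifier of their own that were summed, Eno1b and Aldoart1 were also called higher in knockout LSK cells. Aldoart2 was not called (0.28 ± 0.25, log2 and SE, edgeR adjusted p = 0.435). Since Eno1b and Eno1 share stretches, their counts may not be independent. With these copies summed into the parent the LSK change of Eno1 was 0.45 ± 0.10 (log2, SE) and that of Aldoa 0.51 ± 0.09. Hk1 has an antisense partner, Hk1os, with 2 to 20 counts per library against 1555 to 9457 for Hk1.

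RefSeq's promoter table for GRCm38.p6 held 17 transcription starts of the 10 genes. The 250 bases before each start were searched on both strands for ACGTG, the core of 1 form of the HIF-1 site, and for CACGTG, the E-box bound by MYC, which contains ACGTG. Among all 32851 promoters listed there, 16.6% held ACGTG and 6.02% held CACGTG, against 6 of the 17 windows of these genes, from 5 of the 10 genes, for ACGTG and 1 of 17 for CACGTG. For GCGTG, also searched, the values were 28.2% of all promoters and 7 of the 17 windows, from 5 of the 10 genes. The Aldoa windows with ACGTG overlap and share their match. A match is only a match of letters. Printed here are the window of Pgam1, with the largest rise in knockout LSK cells over the mean of both lines, the first window of Hk1, the 1 gene that fell there, and the window of Ldha with the most matches, 5 over both strands, of which 4 lie in 2 E-boxes. Capitals mark ACGTG on either strand. The windows are chr19:41911621-41911870 on the plus strand for Pgam1, chr10:62379909-62380158 on the minus strand for Hk1 and chr7:46845554-46845803 on the plus strand for Ldha, each written 5′ to 3′ along its gene.
Pgam1: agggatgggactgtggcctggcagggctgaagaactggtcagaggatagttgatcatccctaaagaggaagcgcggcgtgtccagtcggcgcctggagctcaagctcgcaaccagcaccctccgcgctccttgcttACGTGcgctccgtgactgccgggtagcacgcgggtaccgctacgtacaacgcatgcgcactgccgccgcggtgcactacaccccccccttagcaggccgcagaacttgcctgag
Hk1: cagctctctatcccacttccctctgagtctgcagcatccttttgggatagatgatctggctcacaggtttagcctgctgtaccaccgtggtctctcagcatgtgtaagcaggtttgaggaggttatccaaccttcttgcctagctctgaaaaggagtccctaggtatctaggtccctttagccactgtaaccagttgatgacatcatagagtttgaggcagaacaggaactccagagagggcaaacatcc
Ldha: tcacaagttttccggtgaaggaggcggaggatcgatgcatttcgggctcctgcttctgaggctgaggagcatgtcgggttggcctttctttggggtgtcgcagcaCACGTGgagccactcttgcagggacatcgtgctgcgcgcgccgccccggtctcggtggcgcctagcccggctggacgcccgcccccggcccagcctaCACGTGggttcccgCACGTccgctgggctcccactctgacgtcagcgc
The Pgam1 window held 1 match to ACGTG and the Hk1 window 0. The windows of Gpi1, Tpi1 and Eno1, which also rose in knockout LSK cells, held 0 matches to ACGTG, as did the other window of Hk1. For GCGTG that other Hk1 window held 3 matches, the Pgam1 window 2 and the Eno1 windows 1, 2 and 2. The printed windows of Hk1 and Ldha held 0 matches to GCGTG, as did those of Gpi1 and Tpi1. On the mm10 genome, the build named in the submitters' processing notes, the genes themselves lie at chr10:62268855-62379920 (Hk1), chr7:34201327-34230336 (Gpi1), chr10:77986947-78009807 (Pfkl), chr7:126795234-126800994 (Aldoa) and chr6:124810586-124814158 (Tpi1). The genes of the lower part lie at chrX:106187100-106203699 (Pgk1), chr19:41911871-41918665 (Pgam1), chr4:150236708-150248879 (Eno1), chr9:59656576-59679372 (Pkm) and chr7:46842274-46855627 (Ldha). All 10 are annotated as protein-coding.

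Compared per length, the same 5 genes of the pathway were highest in all 8 groups. Ldha, Pkm, Aldoa, Tpi1 and Gpi1 took the first 5 places in every group, and Hk1, Pfkl, Eno1, Pgam1 and Pgk1 the last 5. Of these last, Eno1, Pgam1 and Pgk1 have levels that are uncertain because of their copies, as given above. In LSK CreER controls Ldha was highest, with 443 ± 30.9 CPM per kb of exon (SD, n = 4), apart from Pkm with 268 ± 40.2. Ranges of Pkm, Aldoa (254 ± 29.9) and Tpi1 (217 ± 31.5) overlapped in that order. Gpi1 (165 ± 10.4), Hk1 (104 ± 4.99) and Pfkl (61.3 ± 5.37) followed with ranges apart from their neighbours, then Eno1 (38.6 ± 11.1) and Pgam1 (28.1 ± 6.04), which overlapped, and Pgk1 (4.02 ± 0.22). Pgk1 was last in all groups, the gene with the largest share of stretches found elsewhere. In LSK Mx1Cre controls Pkm (294 ± 35.0) and Ldha (292 ± 34.3) were level, with overlapping ranges. In progenitor controls Ldha led again, with 498 ± 11.4 CPM per kb with CreER and 422 ± 102 with Mx1Cre, where its range overlapped that of Aldoa (417 ± 65.1). Hk1 stood at 138 ± 15.5 in progenitor CreER controls and 62.5 ± 10.4 in progenitor Mx1Cre controls.

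**Figure D1:**
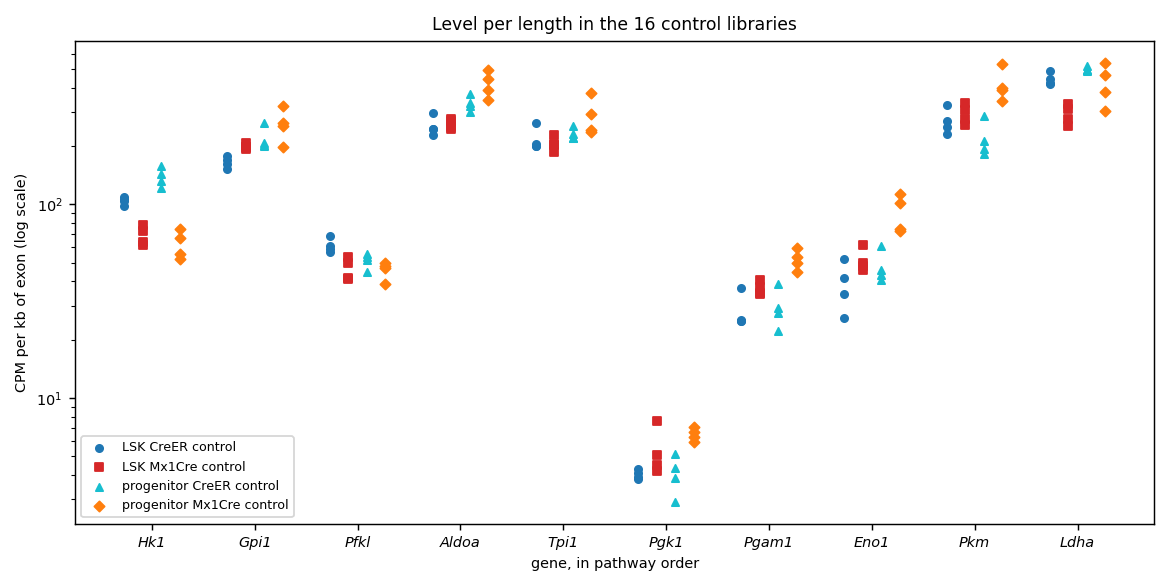
Level of each enzyme gene in CPM per kb of exon (log axis), 1 point per control library, 4 libraries in each of the 4 control groups. Ldha, Pkm, Aldoa, Tpi1 and Gpi1 form the upper tier and Pgk1 lies lowest, at means of 4.02 to 6.48 CPM per kb.

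The knockout was compared with the control in each population to ask how loss of Kat7 changes expression. In LSK cells most enzymes of the pathway rose and the first one, Hk1, fell. Over the mean of both Cre lines 7 of the 10 genes were called higher and 1 lower (edgeR quasi-likelihood test, Benjamini-Hochberg adjusted p under the threshold of 0.05), where 13.5% of all 14102 genes tested were called higher and 14.3% lower. The median log2 fold change of the 10 was 0.35, against 0.01 for all genes tested. The 10 genes and the other lists below were chosen with earlier results of these data known. Counts set beside the share of all genes are therefore descriptions and not a test of a list. With Mx1Cre alone the counts were also 7 higher and 1 lower, against a background of 15.2% higher and 15.9% lower, and the median of the 10 was 0.59. Since total RNA of sorted cells was compared, more transcript per cell and a changed mix of cells within the gate cannot be told apart. Where groups are given below as without overlap, the share of all genes so separated was not counted.

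Hk1, the hexokinase most widely expressed, was at 327, 351, 279 and 287 CPM in LSK Mx1Cre control libraries 1 to 4 and at 245, 221, 231 and 214 in knockouts 1 to 4. Every knockout library lay below every control. The same held with CreER, with 493, 469, 440 and 482 CPM in controls and 412, 387, 362 and 404 in knockouts. The fall was 0.36 ± 0.06 (log2, SE) over both lines (edgeR adjusted p = 0.000273), 0.45 ± 0.08 with Mx1Cre (adjusted p = 0.000777) and, not called, -0.26 ± 0.08 with CreER (adjusted p = 0.0948).

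Gpi1, which isomerises glucose-6-phosphate to fructose-6-phosphate, was at 564, 590, 562 and 549 CPM in LSK Mx1Cre controls and at 824, 686, 776 and 714 in knockouts, without overlap, a rise of 0.40 ± 0.11 (edgeR adjusted p = 0.0119). Over both lines it rose by 0.33 ± 0.08 (edgeR adjusted p = 0.00546). Pfkl, the liver-type subunit of phosphofructokinase, was not called: its LSK Mx1Cre controls spanned 154 to 198 CPM and its knockouts 167 to 223, and its change over both lines was -0.07 ± 0.08 (edgeR adjusted p = 0.562). Its values for the lines lay on either side of 0, at -0.27 ± 0.11 with CreER and 0.14 ± 0.11 with Mx1Cre, neither of them called.

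Aldoa, the aldolase that splits fructose-1,6-bisphosphate, had 456, 449, 503 and 489 CPM in LSK Mx1Cre controls and 871, 620, 899 and 753 in knockouts. All knockouts lay above all controls, with a ratio of means of 1.66, and the rise was 0.73 ± 0.12 (edgeR adjusted p = 0.000336). Over both lines it was 0.51 ± 0.09 (edgeR adjusted p = 0.000344). Tpi1, which interconverts the triose phosphates that aldolase makes, had 324, 298, 364 and 328 CPM in those controls and 527, 375, 553 and 536 in the knockouts, again without overlap, and rose by 0.60 ± 0.14 with Mx1Cre (edgeR adjusted p = 0.00344). Knockout library 2 was the lowest of the 4 for both genes.

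In the lower part of the pathway Pgam1, Eno1, Pkm and Ldha rose, and Pgk1 was not called. Pgam1, a phosphoglycerate mutase, went from 63.2, 63.9, 74.7 and 68.5 CPM in LSK Mx1Cre controls to 117, 92.5, 125 and 108 in knockouts, with no overlap. Its rise was 0.71 ± 0.14 with Mx1Cre (edgeR adjusted p = 0.00114) and 0.60 ± 0.10 over both lines (edgeR adjusted p = 0.000258), the largest of the 10 genes in the mean of both lines. Eno1, an enolase, had 85.4, 81.6, 110 and 88.3 CPM in controls and 159, 117, 191 and 138 in knockouts, without overlap, and rose by 0.72 ± 0.18 (edgeR adjusted p = 0.00618).

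Pkm, the pyruvate kinase of most tissues outside liver and red cells, was at 664, 717, 870 and 801 CPM in LSK Mx1Cre controls and at 1232, 990, 1354 and 1193 in knockouts, again apart. It rose by 0.64 ± 0.12 with Mx1Cre (edgeR adjusted p = 0.000896) and by 0.41 ± 0.09 over both lines (edgeR adjusted p = 0.00193). Ldha had 532, 490, 638 and 597 CPM in controls and 909, 616, 967 and 879 in knockouts, and the groups overlapped through knockout library 2. Its rise was 0.58 ± 0.14 with Mx1Cre (edgeR adjusted p = 0.00515). Over both lines it was 0.30 ± 0.10 (edgeR adjusted p = 0.0298), and that call was lost without any 1 of CreER controls 1, 2 and 4, Mx1Cre controls 1 and 2, CreER knockouts 1 and 2 or Mx1Cre knockouts 1, 3 and 4, with values of 0.25 to 0.30. Pgk1, the first ATP-making enzyme, spanned 7.51 to 13.7 CPM in LSK Mx1Cre controls and 8.32 to 12.8 in knockouts, with a change of 0.17 ± 0.18 (edgeR adjusted p = 0.523).

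**Figure D2:**
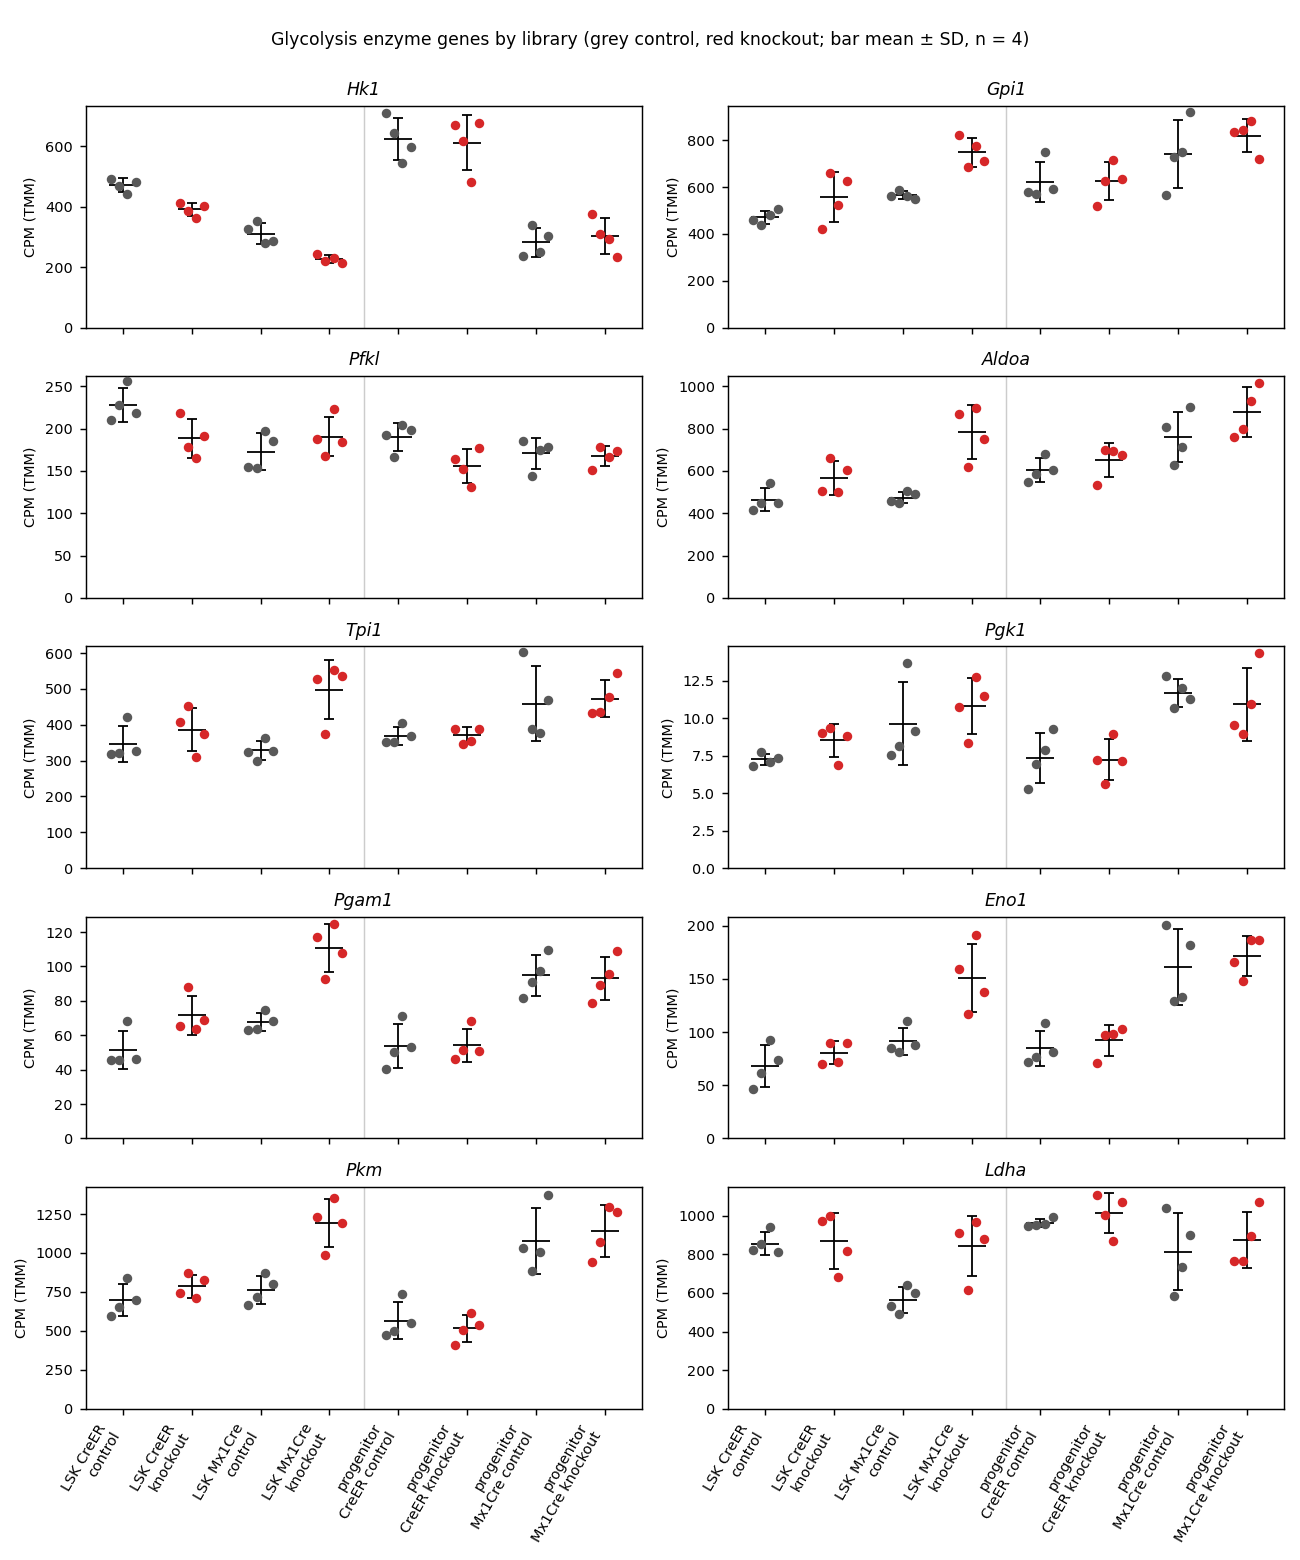
CPM of each enzyme gene in the 32 libraries, 4 per group, grey for controls and red for knockouts, with the group mean ± SD. In LSK Mx1Cre cells all 4 knockout points of Gpi1, Aldoa, Tpi1, Pgam1, Eno1 and Pkm lie above the 4 control points and those of Hk1 below them, while control and knockout points overlap for all 10 genes in both progenitor lines. The share of all genes that separate in this way was not counted.

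LSK Mx1Cre knockout library 2 was the lowest of its group for 9 of the 10 genes, and it was also the 1 library of the group without a negative length slope. Without it the rises were larger, for example 0.83 ± 0.11 for Aldoa and 0.71 ± 0.12 for Ldha, and the counts remained 7 higher and 1 lower. With the trend of expression with gene length removed from each library the counts were 7 and 1 as well, with rises of 0.63 ± 0.11 for Aldoa, 0.62 ± 0.12 for Pgam1 and 0.62 ± 0.12 for Pkm in the Mx1Cre line.

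With CreER the same contrast called none of the 10 genes in LSK cells, where 3.16% of all genes were called in either direction. By an unadjusted p under 0.05, 5 of the 10 passed, Hk1, Gpi1, Pfkl, Aldoa and Pgam1, as did 17.7% of all genes tested. The DESeq2 test called 1 of the 10 higher, Pgam1 (adjusted p = 0.0231), and 1 lower, Hk1 (adjusted p = 0.0275), and limma-voom called 0. By edgeR Pgam1 was also called without CreER control 3 (0.64, adjusted p = 0.00741) or Mx1Cre knockout 2 (adjusted p = 0.0465), and Gpi1 without CreER knockout 1 (0.35, adjusted p = 0.0362). Of the 10 fold changes 8 were above 0, with a median of 0.21. The largest was that of Pgam1, whose controls were at 45.6, 45.8, 68.0 and 46.3 CPM and knockouts at 65.4, 88.1, 63.9 and 69.1. Control library 3 overlapped the knockouts, and the change was 0.48 ± 0.14 (edgeR adjusted p = 0.0665). That of Ldha was 0.02 ± 0.14 (edgeR adjusted p = 0.956).

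The difference between the lines was tested as an interaction in LSK cells, and none of the 10 genes was called, where 4.37% of all genes were. By an unadjusted p under 0.05 there were 5, Pfkl, Aldoa, Tpi1, Pkm and Ldha, and 24.1% of all genes tested. DESeq2 and limma-voom called 0. The term (Mx1Cre minus CreER) was largest for Ldha, at 0.55 ± 0.20 (edgeR adjusted p = 0.109), and lay above 0 for 8 of the 10. This outcome rested on 1 library. Without LSK Mx1Cre knockout 2 the terms of 5 genes were called higher, namely Pfkl (0.48 ± 0.16), Aldoa (0.54 ± 0.15), Tpi1 (0.56 ± 0.16), Pkm (0.56 ± 0.16) and Ldha (0.69 ± 0.16), with an edgeR adjusted p of at most 0.042. The same fit called 2556 genes in all, against 616 with all libraries, or 7.27% of the 14263 genes tested higher and 10.6% lower. Eno1 had 0.61 ± 0.24 and adjusted p = 0.0931 in the same fit.

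**Figure D3:**
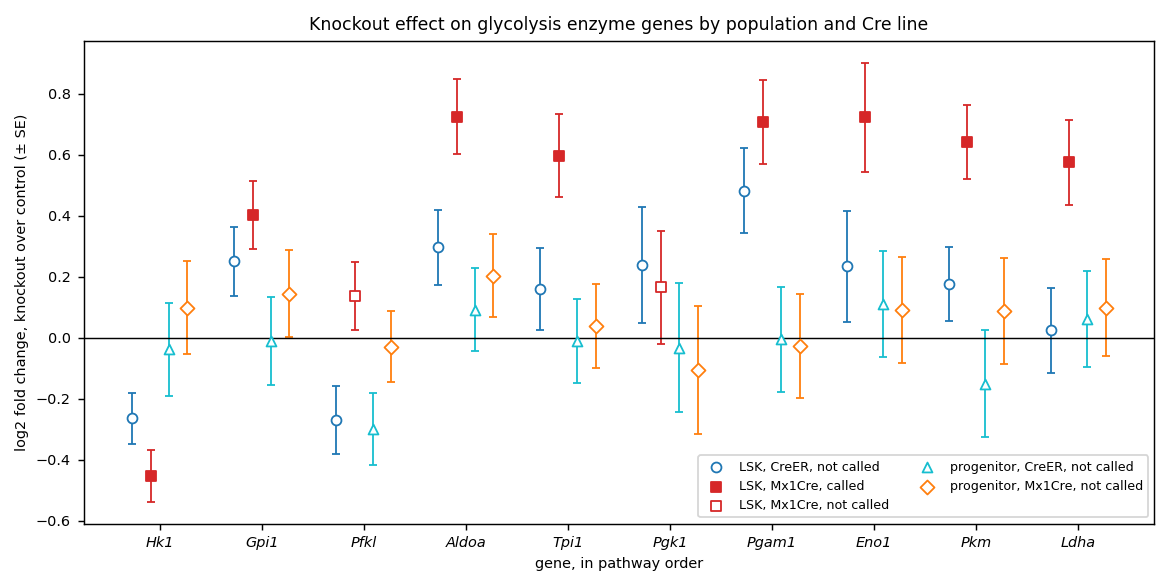
Log2 fold change (knockout over control, ± SE from the edgeR test, 4 against 4 libraries) of each enzyme gene in the 2 populations and 2 Cre lines, with filled symbols for called changes. The filled points are all from LSK cells with Mx1Cre, between -0.45 for Hk1 and 0.73 for Aldoa, and the progenitor points lie between -0.30 and 0.20.

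Marker genes of cell types moved in the same LSK comparison. Of all genes tested 13.5% were called higher and 14.3% lower over both lines, and 15.2% and 15.9% in the Mx1Cre line. With CreER 3.16% were called in either direction. Of the 10 stem and LSK gate markers 7 were called lower and 0 higher over both lines. In the Mx1Cre line 7 were lower and 1 higher, and with CreER 1 was lower and 0 higher. Their summed level was 1300 to 1590 CPM in Mx1Cre controls and 930 to 1279 in Mx1Cre knockouts. Of 10 progenitor markers, such as Mpo and Elane, 5 were called higher and 0 lower over both lines, and 1 higher and 1 lower in the Mx1Cre line, where sums were 17870 to 22140 CPM in controls and 20180 to 27450 in knockouts. Mature neutrophil markers, such as S100a8 and Ltf, had 4 of 9 called higher over both lines and 0 of 9 in the Mx1Cre line, where sums spanned 428 to 2538 CPM in controls and 998 to 2427 in knockouts. Megakaryocyte and platelet markers had 4 of 6 called lower, with sums of 173 to 263 CPM in Mx1Cre controls and 73.3 to 88.9 in knockouts. Of 9 erythroid markers tested 3 were called higher and 3 lower over both lines, 1 higher and 5 lower in the Mx1Cre line and 0 with CreER. Sums over 11 erythroid genes were 374 to 742 CPM in Mx1Cre controls and 342 to 382 in Mx1Cre knockouts. The part of these shifts in the change of the enzymes was not tested.

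In progenitor cells none of the 10 enzymes was called between knockout and control. Over both lines 7.79% of the 13692 genes tested were called in either direction, with CreER 0.168% and with Mx1Cre 6.08%. The 10 changes over both lines lay between -0.16 (Pfkl) and 0.15 (Aldoa), with a median of 0.02. By an unadjusted p under 0.05 there were 0 of the 10 in the mean of both lines, 1 with CreER (Pfkl) and 0 with Mx1Cre, where 19.7%, 7.82% and 17.5% of all genes passed, and DESeq2 and limma-voom called 0 in each of these. Aldoa had 548, 586, 680 and 606 CPM in CreER controls and 534, 699, 695 and 676 in CreER knockouts, and 806, 627, 711 and 902 in Mx1Cre controls against 762, 799, 928 and 1018 in Mx1Cre knockouts, so that the groups overlapped in both lines. Pgam1 had 40.4, 50.5, 71.2 and 53.2 CPM in CreER controls and 46.3, 51.7, 68.3 and 50.7 in knockouts, and its change over both lines was -0.02 ± 0.12 (edgeR adjusted p = 0.968). The interaction of the lines was also called for 0 of the 10, where 0.299% of all genes were, and 0 had an unadjusted p under 0.05, as 5.05% of all genes did. Leaving out Mx1Cre control 1 and knockout 4, the libraries with the steepest length slopes, also called 0 of the 10.

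The knockout effects of the 2 populations were compared in a fit of all 32 libraries, which took the 2 libraries of a mouse as independent. Pgam1 was called, with an effect larger in LSK cells by 0.60 ± 0.16 (edgeR adjusted p = 0.0344), and no other of the 10, where 1.10% of the 14459 genes tested were called higher and 1.42% lower. Leaving out any 1 of 14 of the 32 libraries ended that call, with adjusted p up to 0.0745: LSK CreER controls 1, 2 and 4, LSK Mx1Cre controls 1 and 2, LSK CreER knockout 2, LSK Mx1Cre knockouts 1 and 3, progenitor CreER control 3, progenitor Mx1Cre control 4, progenitor CreER knockouts 1, 2 and 4 and progenitor Mx1Cre knockout 1. Over all 32 such fits the value lay between 0.52 and 0.69. The call also ended on leaving out LSK CreER knockouts 2 and 3 together (0.54, edgeR adjusted p = 0.104). With the mouse as a block, which pairs the populations of 1 mouse, Pgam1 had 0.60 ± 0.12 (edgeR adjusted p = 0.00652), Pkm was called as well at 0.43 ± 0.11 (adjusted p = 0.0324) and Hk1 lower at -0.39 ± 0.09 (adjusted p = 0.0209). For Aldoa the blocked value was 0.35 ± 0.10 (adjusted p = 0.0584).

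Between the populations, control LSK cells held less of 5 of the 10 enzymes than control progenitors and more of none. These were Aldoa (log2 difference -0.53 ± 0.09, edgeR adjusted p = 4.78e-05), Eno1 (-0.56 ± 0.13), Gpi1 (-0.40 ± 0.09), Ldha (-0.35 ± 0.11) and Tpi1 (-0.29 ± 0.10, adjusted p = 0.0222, the highest of the 5). Of all genes tested 17.3% were called lower in LSK cells and 17.4% higher. Over 8 control libraries each, Aldoa was at 416 to 542 CPM in LSK cells (median 452) and 548 to 902 in progenitors (median 653), so that the populations did not overlap. Pgam1 had -0.28 ± 0.11 (adjusted p = 0.0549), and -0.27 ± 0.09 (edgeR adjusted p = 0.0187) with the mouse as a block. The call of Tpi1 was lost without progenitor Mx1Cre control 1 (-0.21, edgeR adjusted p = 0.0686).

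Among knockouts 4 of the 10 enzymes were called between the populations. Hk1 was lower in LSK cells (log2 difference -0.53 ± 0.09, edgeR adjusted p = 3.09e-05), and Pkm (0.34 ± 0.11), Pgam1 (0.33 ± 0.11) and Pfkl (0.23 ± 0.08) were higher, with adjusted p of 0.018, 0.026 and 0.0298. That is 3 of 10 higher and 1 lower, where 16.8% of all genes were called higher and 12.5% lower. The count of 3 was 1 without LSK Mx1Cre knockout 3 or without progenitor Mx1Cre knockout 1. Pgam1 also lost its call without LSK CreER knockout 2, progenitor CreER knockouts 1 or 4, or LSK CreER knockouts 2 and 3 together (0.29, edgeR adjusted p = 0.0846). Pfkl lost its call without LSK CreER knockout 1 or progenitor CreER knockouts 2 or 3, and with the length trend removed. For Aldoa the difference was -0.18 ± 0.09 (edgeR adjusted p = 0.15) and for Eno1 -0.19 ± 0.13 (adjusted p = 0.3). The change of the population difference from controls to knockouts is the difference of the knockout effects given above, which without the block was called for Pgam1 alone of the 10.

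The control groups of the 2 Cre lines differed too, and the inducing agent, the Cre and the mice cannot be told apart there. In progenitors Eno1, Pkm, Pgam1 and Pgk1 were higher with Mx1Cre, by 0.93 ± 0.18, 0.93 ± 0.18, 0.82 ± 0.17 and 0.68 ± 0.21, and Hk1 was lower, at -1.14 ± 0.15 (edgeR adjusted p of at most 0.0276). The call of Pgk1 was lost without progenitor CreER control 1 or 2. Hk1 was at 709, 643, 544 and 597 CPM in the CreER controls and at 236, 338, 250 and 303 in the Mx1Cre controls. That is 4 of 10 higher and 1 lower, where 14.3% of all genes were called higher and 10.9% lower. In LSK controls Hk1 (-0.58 ± 0.08), Ldha (-0.58 ± 0.14) and Pfkl (-0.38 ± 0.11) were lower with Mx1Cre and Pgam1 higher (0.41 ± 0.14, edgeR adjusted p = 0.0429), or 3 lower and 1 higher where 10% and 11.7% of genes were called. The call of Pgam1 was lost without any 1 of CreER controls 1, 2 and 4, the 4 Mx1Cre controls or Mx1Cre knockouts 1 and 4, and that of Pfkl without CreER controls 2 or 3 or Mx1Cre controls 1 or 2. Mature neutrophil markers were called higher with Mx1Cre for 9 of 9 genes in LSK and in progenitor controls, and progenitor markers for 10 of 10 and 9 of 10; their part in the enzyme differences was not tested.

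Most steps of the pathway are served by isozymes, and their shares were computed per length within each library. Hexokinase RNA was divided between Hk1 and Hk3, with Hk2 at 4.12% to 10.5% in all libraries. The Hk1 share was 28.5% to 31.4% in LSK Mx1Cre controls and 19.3% to 22.7% in the knockouts, without overlap, and 42.8% to 55.3% and 38.9% to 52.0% with CreER. In progenitors it was 42.6% to 60.4% in CreER controls and 19.4% to 25.2% in Mx1Cre controls. Hk3 itself was not called between knockout and control LSK cells over both lines (0.17 ± 0.11, edgeR adjusted p = 0.292). Hk2, the inducible form, rose by 0.17 ± 0.06 over both lines (edgeR adjusted p = 0.0407). It was called in neither line alone (edgeR adjusted p = 0.428 with CreER and 0.0729 with Mx1Cre). Of the phosphofructokinase genes, Pfkp, the platelet-type subunit, rose by 0.29 ± 0.07 over both lines (edgeR adjusted p = 0.00453). With CreER alone Pfkp was not called (0.15 ± 0.10, edgeR adjusted p = 0.452). Its share was 28.6% to 30.3% in LSK Mx1Cre controls and 33.0% to 36.3% in knockouts, without overlap.

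Ldhb, the heart-type lactate dehydrogenase subunit, fell in LSK Mx1Cre knockouts, where Ldha rose. It was at 22.5, 25.2, 18.4 and 18.01 CPM in LSK Mx1Cre controls and 9.29, 7.73, 8.85 and 8.74 in knockouts, a fall of 1.29 ± 0.16 (edgeR adjusted p = 1.88e-05). In progenitors it was at 41.4, 29.99, 17.6 and 26.1 CPM with Mx1Cre controls and 7.43, 9.62, 8.38 and 6.57 with knockouts, a fall of 1.85 ± 0.27 (edgeR adjusted p = 0.000478). The groups did not overlap in either population. With CreER the changes were 0.01 ± 0.16 in LSK cells and -0.21 ± 0.26 in progenitors, and neither was called. In progenitors the CreER controls spanned 8.98 to 17.2 CPM and the CreER knockouts 8.29 to 12.8, all below the Mx1Cre controls. In LSK cells the spans were 12.5 to 20.8 CPM in CreER controls and 13.9 to 18.5 in CreER knockouts. The falls are thus relative to Mx1Cre controls that, in progenitors, stood above both CreER groups. The interaction of the lines in LSK cells was called for Ldhb, at -1.30 ± 0.23 (edgeR adjusted p = 0.00265), and in progenitors it was not, at -1.64 ± 0.38 (adjusted p = 0.105). Of Ldha and Ldhb together, Ldhb made up 4.14% to 7.14% in LSK Mx1Cre controls and 1.35% to 1.84% in knockouts. Pklr, the pyruvate kinase of liver and red cells, was lower in LSK than in progenitor controls (-2.47 ± 0.39, edgeR adjusted p = 1.44e-05), where erythroid markers were called lower for 9 of 11 genes. Pklr fell in LSK Mx1Cre knockouts by 1.81 ± 0.59 (edgeR adjusted p = 0.0274). Controls 1 to 4 were at 34.4, 24.9, 4.63 and 2.18 CPM and knockouts at 6.25, 4.83, 2.98 and 4.95. Controls 1 and 2 lay above all 4 knockouts and controls 3 and 4 among or below them. In the same comparison 5 of 9 erythroid markers were called lower, and their part in the change of Pklr was not tested.

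**Figure D4:**
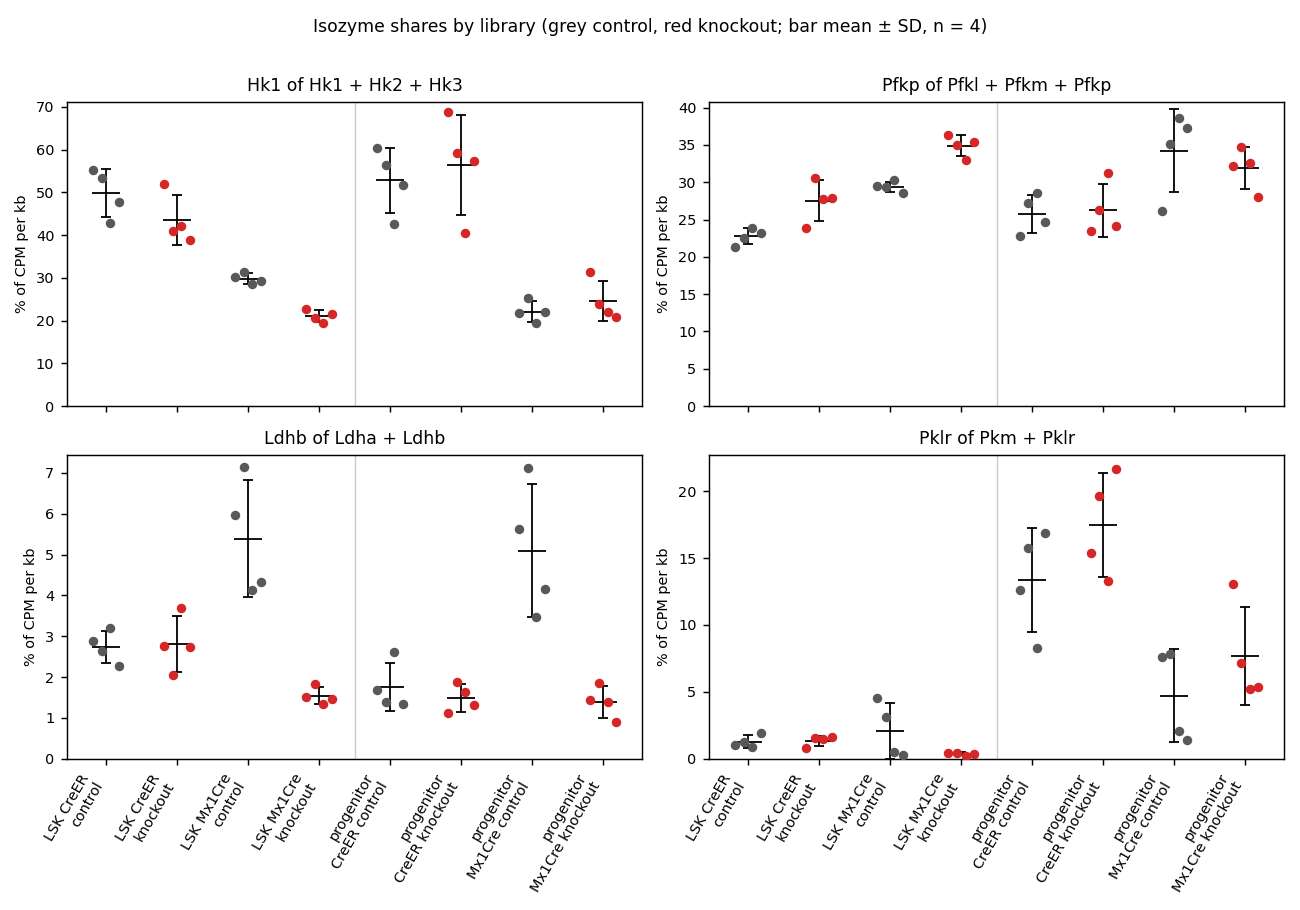
Share of 1 isozyme in the summed CPM per kb of its family, in percent, 1 point per library with the group mean ± SD (n = 4), grey for controls and red for knockouts. The Hk1 share is higher with CreER than with Mx1Cre in both populations, and the Ldhb share falls to means of 1.54% and 1.39% in the Mx1Cre knockouts. With CreER the mean Ldhb share is 2.74% in LSK controls and 2.81% in LSK knockouts. In progenitors it is 1.76% and 1.49%.

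Around the pathway, the branches that leave it changed in knockout LSK cells as well. Of 16 genes of the pentose phosphate and serine branches 10 were called higher and 0 lower over both lines, with a median of 0.28, against the 13.5% and 14.3% of all genes given above. With Mx1Cre alone 9 were higher and 1 lower, with CreER 1 and 0, and in progenitors 0 were called. Those with the lowest p were Psat1 (0.38 ± 0.08) of serine synthesis, Taldo1 (0.38 ± 0.09, edgeR adjusted p = 0.00321) and Rpia (0.38 ± 0.09) of the non-oxidative branch and G6pdx (0.31 ± 0.07), the entry enzyme. In control LSK cells 6 of the 16 were lower than in progenitors, led by Pgd (-0.83 ± 0.10, edgeR adjusted p = 4.72e-07). Of all genes 15.2% were called higher and 15.9% lower with Mx1Cre, and 3.16% in either direction with CreER. These lists too were chosen with earlier results of the data known. Of 11 genes of gluconeogenesis and glycogen 6 were called higher and 2 lower in knockout LSK cells, also with Mx1Cre alone, and 0 with CreER. Among them were Pck2 (0.43 ± 0.06) and Fbp1 (0.81 ± 0.16), enzymes that work against glycolysis, and the glycogen phosphorylase Pygb (-0.39 ± 0.07). Pck2 (0.43 ± 0.11), Fbp1 (0.79 ± 0.20) and Pygb (-0.53 ± 0.12) were called the same way in knockout progenitors.

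Among 9 glucose and lactate transporters tested, 2 were called higher and 1 lower in knockout LSK cells over both lines. Slc2a6 rose by 1.11 ± 0.14 (edgeR adjusted p = 1.56e-05) and the lactate carrier Slc16a1 by 0.44 ± 0.10, and Slc2a9 fell by 0.71 ± 0.13. With Mx1Cre alone 3 of the 9 were higher and 2 lower, and with CreER 1 and 0. Slc16a1 was not called with CreER (0.27 ± 0.14, edgeR adjusted p = 0.3125). Slc2a9 also fell in knockout progenitors, by 0.90 ± 0.15 (edgeR adjusted p = 0.00133). Slc2a1, the main glucose carrier of most cells, was higher in LSK than in progenitor controls (0.45 ± 0.11) and Slc16a1 lower (-0.69 ± 0.10, edgeR adjusted p = 6.89e-06). Of 18 regulators of flux and of pyruvate entry 5 rose in knockout LSK cells, led by Pdhx (0.35 ± 0.07), Dld (0.37 ± 0.08) and Dlat (0.33 ± 0.08), which encode parts of the pyruvate dehydrogenase complex. With Mx1Cre alone 4 of the 18 were called higher and 2 lower, and with CreER 0. The shares of all genes called higher and lower were 13.5% and 14.3% over both lines and 15.2% and 15.9% with Mx1Cre. With CreER the share in either direction was 3.16%. The phosphatase gene Pdp2, which activates that complex, fell by 0.35 ± 0.11 (edgeR adjusted p = 0.025).

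Of the factors known to act on these genes, Hif1a rose by 0.48 ± 0.09 in knockout LSK cells (edgeR adjusted p = 0.00123) and by 0.41 ± 0.11 in knockout progenitors (adjusted p = 0.0357). Among the 19 tested HIF-1 factors and targets outside glycolysis 6 were called higher and 1 lower in LSK cells over both lines, against 13.5% and 14.3% of all genes. With Mx1Cre alone there were 4 higher and 1 lower, where 15.2% and 15.9% of all genes were. With CreER there were 0, where 3.16% of all genes were called in either direction. Among those called higher over both lines were Bhlhe40 at 0.79 ± 0.19, the prolyl hydroxylase gene Egln1 at 0.27 ± 0.06 and the oxidase gene Ero1a at 0.37 ± 0.10. In progenitors 3 were higher and 1 lower, where 2.28% and 5.51% of all genes were. The other 12 of that list were not called in LSK cells. Of the 9 MYC family genes and partners 0 were called higher and 2 lower in LSK cells, Mycn by 1.99 ± 0.19 (edgeR adjusted p = 7.96e-07) and Mxd4 by 0.43 ± 0.11. Mycn was also higher in LSK than in progenitor controls, by 3.10 ± 0.35 (edgeR adjusted p = 8.21e-08).

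**Figure D5:**
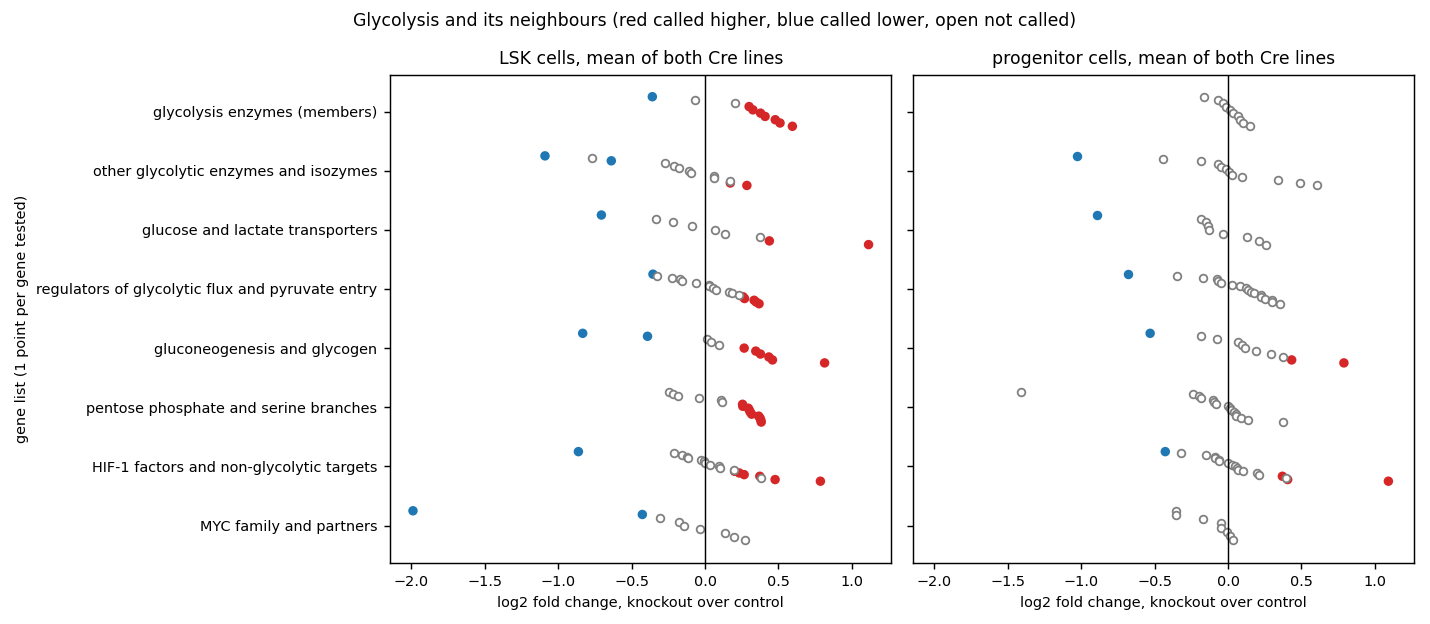
Log2 fold change (knockout over control, mean of both Cre lines) of each tested gene of the enzyme list and of 7 neighbouring lists, in LSK cells and in progenitor cells, red for called higher, blue for called lower and open for not called. In LSK cells 7 of the 10 enzymes and 10 of the 16 branch genes are red, and in progenitors none of either list is called. The lists were chosen with earlier results of these data known.

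Within groups the enzymes varied together in part. After subtraction of group means the Pearson r of log2 CPM over the 16 LSK libraries had a median of 0.60 over the 45 pairs of the 10 genes, was over 0.5 for 29 pairs and below 0 for 9. In progenitors the median was 0.36, with 16 and 13 pairs. Hk1 stood apart, with a median r of -0.27 with the other 9 genes in LSK cells and -0.49 in progenitors, whereas Aldoa had 0.76 and 0.53. Both genes of a pair were read from the same library, with its depth and length slope, so these are descriptions. Outside the list, the genes whose log2 CPM over all 32 libraries most resembled the mean z-score of the 10 were Tuba4a (Pearson r = 0.94), Arf1 (0.93), Mydgf (0.92), Dnajb11 (0.92), Etfb (0.91) and Slc25a39 (0.91), of 10874 genes compared. Spearman's rho of these 6 lay between 0.89 and 0.94.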

How the data were processed

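RNA from sorted LSK and progenitor cells (50 ng per library, 80 bp paired reads, per the labels' protocols) was measured in 32 libraries from 16 mice. The deposited values are raw counts per gene, assigned with featureCounts on mm10, per the submitters' processing notes. For the aligner, the program versions, strand and reads with several matches the settings were not given in the sources used here. Exon lengths in bases, also deposited by the authors, were used for levels per kb. The same 32 libraries appear with identical counts in both deposited tables, and 1 was used. Totals were 7275277 to 18409271 counts, median 12207444. The 1904 genes without a symbol (3.921% of counts) stayed in library sizes and tests.

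Counts were tested with edgeR 4.0.16 (R 4.3.3) by the quasi-likelihood test, with TMM scaling, filterByExpr (minimum count 10, minimum total 15) and Benjamini-Hochberg adjustment over all genes tested at 0.05. LSK and progenitor libraries were fitted separately (16 each), or all 32 together where populations were compared, giving 13 comparisons. SE is the absolute log2 fold change over the root of F. Fold changes came from the edgeR fit at its default prior count. Log2 CPM, used for length slopes, correlations and likeness, had a prior count of 2. Within a population the p-values measure the spread between mice. The fit of all 32 libraries without a block took the 2 libraries of a mouse as independent. Alternatives were DESeq2 1.42.0, limma 3.58.1 (voom), DESeq2 size factors, other filters, only the libraries compared, removal of each library's trend with gene length, sex as a covariate, replicate and mouse blocks, copies summed into their parents, and left-out libraries. Summing copies, leaving out the progenitor libraries with steep length slopes and exchanging LSK CreER knockouts 2 and 3 were chosen after seeing the data.

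Named genes were the 10 enzymes, Kat7 and, per pathway list and comparison, up to 4 called genes with the lowest p. Isozymes and copies were named in addition. Members and lists were chosen with earlier results of these data known. Replicate numbers paired 8 of 16 pairs of libraries at a correlation over 0.1. The labels tie the 2 populations of a mouse, and 14 of 16 such pairs were over 0.1, the exceptions being LSK CreER knockouts 2 and 3. Promoter windows came from RefSeq (GRCm38.p6) and 80-base stretches from GENCODE M21 transcripts. In the erythroid list 11 of 12 genes were matched, and all genes of the other lists were.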

Additional observations from a re-analysis of the deposited data

Results flagged for a closer look

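Within groups of 4 libraries, a library was set apart where its gap to the nearest other as a share of the group's range exceeded Dixon's critical value for 4 samples, in CPM. Of 80 gene and group combinations 6 met this, and chance alone gives about 1 in 20 groups. In CreER control 3 the highest value stood apart for Gpi1 in progenitors (749 CPM), for Tpi1 in LSK cells (423 CPM) and for Pgam1 in LSK cells (68.0 CPM). In progenitor CreER knockout 1 the lowest value stood apart for Aldoa (534.0 CPM) and Eno1 (70.6 CPM). In LSK Mx1Cre knockout 2 the lowest value stood apart for Tpi1 (375 CPM).

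The knockout effect on Pgam1 differed between the populations by a test of the difference itself. It was larger in LSK than in progenitor cells by 0.60 on the log2 scale. In the fit without a block that call ended on leaving out any of several single libraries, as given above. It also ended without LSK CreER knockouts 2 and 3 together.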

How the results depend on the processing

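In LSK Mx1Cre cells 7 enzymes were called higher and 1 lower under all 27 alternatives run, and in the mean of both lines 6 to 7 higher and 1 lower. No alternative run called an enzyme in the progenitor knockout comparisons. Of 3110 values of single enzymes under alternatives 2996 kept direction and call, 56 lost a call, 40 gained one and 18 changed sign. In LSK CreER cells DESeq2 called 1 higher and 1 lower, removal of the length trend 1 higher, and leaving out single libraries 0 to 1 higher. The LSK interaction had 0 to 5 higher on leaving out single libraries, where the count over all genes went from 616 to 2556 without LSK Mx1Cre knockout 2. Between LSK controls 0 were higher with sex as a covariate, 2 with the length trend removed and 0 to 2 without single libraries. The covariate was the labelled sex, which expression did not match in LSK CreER knockouts 2 and 3. Between progenitor controls 2 were lower with the length trend removed, and 2 without Mx1Cre control 1 and knockout 4. LSK minus progenitor among knockouts had 2 lower with the length trend removed and 1 to 3 higher without single libraries. The difference of the knockout effects had 0 higher without LSK CreER knockouts 2 and 3, and 1 lower with DESeq2 or without progenitor Mx1Cre control 1 and knockout 4. Without single libraries it had 0 to 1 higher and 0 to 1 lower. The cause of these shifts was not tested.

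With the mouse as a replicate block the difference of the knockout effects had 2 higher and 1 lower, and the same with LSK CreER knockouts 2 and 3 exchanged. The replicate number as a block left 7 higher and 1 lower in LSK Mx1Cre cells and changed no call of an enzyme within a population.

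Signs changed on leaving out single libraries only for values that were not called. The ranges were -0.054 to 0.13 for Ldha in LSK CreER cells, -0.17 to 0.12 for the LSK interaction of Pgk1 and -0.105 to 0.049 for Tpi1 between LSK controls. For the progenitor mean they were -0.027 to 0.093 for Hk1, -0.027 to 0.11 for Tpi1, -0.081 to 0.071 for Pgam1 and -0.078 to 0.052 for Pkm. Pgk1 had the fewest counts of the 10, 58 to 170 per library.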
